A study of Caenorhabditis elegans with 95 samples.

Results

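The *pals* genes of *C. elegans* were described in RNA-seq read counts from worms on doxycycline (Dox). Members were taken as every gene of the count table whose symbol starts with pals-, which gave 38 of 46904 genes, all protein-coding. Counts came from 85 RIAILs (1 library each), CB4856 (6 libraries) and N2 (4 libraries). CB4856 is the Hawaii wild strain and N2 the Bristol laboratory strain. The RIAILs (recombinant intercross advanced inbred lines) are inbred progeny of CB4856 and QX1430, a strain with the N2 background and deletions of confounder genes, and every line holds a different mixture of the parental genomes. N2 itself is therefore not the exact parent of the RIAILs. All libraries were from worms on 15 μg/mL Dox, an antibiotic that blocks mitochondrial translation, and no untreated worms were used here. By the methods of the study, synchronized L1 larvae were put on Dox and harvested as L4 worms, whereas the sample labels describe L4 worms whose progeny was later moved to plates with 5FU, an inhibitor of DNA synthesis. Which of these protocols the RNA libraries followed cannot be told from the sources used here.

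The *pals* genes encode proteins with the ALS2CR12 signature, a protein region of unknown biochemical function, and the family is much larger in *C. elegans* than in mammals. Several members control or mark the intracellular pathogen response, a transcriptional program of the worm intestine that is switched on by microsporidia, by the Orsay virus and by blockade of the proteasome. *pals-22* represses the program and its neighbour *pals-25* activates it, *pals-17* is a second repressor, *pals-16* and *pals-20* act on the side of activation, and *pals-5* is the gene whose promoter is commonly used as the reporter. For most other members no function is known, and they are described here by level and position only.

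The total count was 22121202 to 23879871 per library. Reads were aligned to WBcel235, a genome of N2 sequence, so a gene that is missing from CB4856 and a gene whose CB4856 sequence no longer matches the reference cannot be told apart by a low count. Each library is a population of whole worms, in which fewer expressing cells and less RNA per cell cannot be told apart either. Marker genes of intestine, muscle, pharynx, neurons, hypodermis and germline were present in every library. In the comparison of CB4856 with N2, the intestinal genes *elt-2* (median 676 counts in CB4856 and 335.5 in N2, adjusted p = 9.68e-05) and *ges-1* (log2 fold change 0.80, adjusted p = 0.00383) were higher in CB4856, the third intestinal marker *asp-1* gave 0.34 (adjusted p = 0.127), and the male gene *plg-1* was lower (log2 fold change -2.65, adjusted p = 0.00529; all edgeR). Their part in the differences below was not tested.

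The 38 members lay in 11 runs when members less than 50 kb apart were joined. The largest run held 14 members on chromosome I (13083321 to 13144623), from *pals-13* to *pals-15* and with *pals-5* in it. On chromosome III, 4 members lay near the left end (120435 to 137975, in the order *pals-24*, *pals-23*, *pals-22*, *pals-25*), 7 lay further in (1376945 to 1406263, in the order *pals-40*, *pals-21*, *pals-20*, *pals-17*, *pals-16*, *pals-19*, *pals-18*), and *pals-26*, *pals-27* and *pals-28* formed another run. *pals-37*, *pals-39* and *pals-38* formed a run on chromosome V (12437440 to 12446995), *pals-29* and *pals-30* a pair on chromosome IV, and *pals-1* on I and *pals-31*, *pals-32*, *pals-33* and *pals-34* on V stood alone. *pals-20* lies wholly inside *Y82E9BR.5* on the other strand, *pals-3* covers *pals-12* on the same strand and overlaps *pals-4* on the other, and *pals-24* shares 529 bases with *C29F9.12* on the other strand. The strand setting of the counting is unknown here, so reads of such overlapping genes cannot be told apart.

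Members spanned a wide range of levels. The median over all 95 libraries was at least 10 counts for 19 of 38 members, 1 to 9 counts for 14 and 0 for 5, and only *pals-16*, *pals-17* and *pals-18* had a median of at least 100. Levels of different genes were compared per kilobase of exon. CPM is the count scaled to the library size after TMM normalization. By the median CPM per kb over all libraries, the highest 5 were *pals-17* (7.12), *pals-16* (6.52), *pals-19* (4.04), *pals-6* (2.61) and *pals-34* (2.48). The first 3 of these lie side by side on chromosome III. In the run of 14 on chromosome I, 8 members had a median of 1 count or fewer. *pals-5*, the reporter gene of the pathogen response, had 0 to 24 counts in RIAILs (median 1, 0 counts in 23 lines), 0 to 4 in CB4856 (median 1) and 3, 1, 0 and 3 in N2. *pals-12* had a single read in a single RIAIL and none in CB4856 or N2, and since it lies within *pals-3*, reads shared by both may have been left uncounted.

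**Figure D1:**
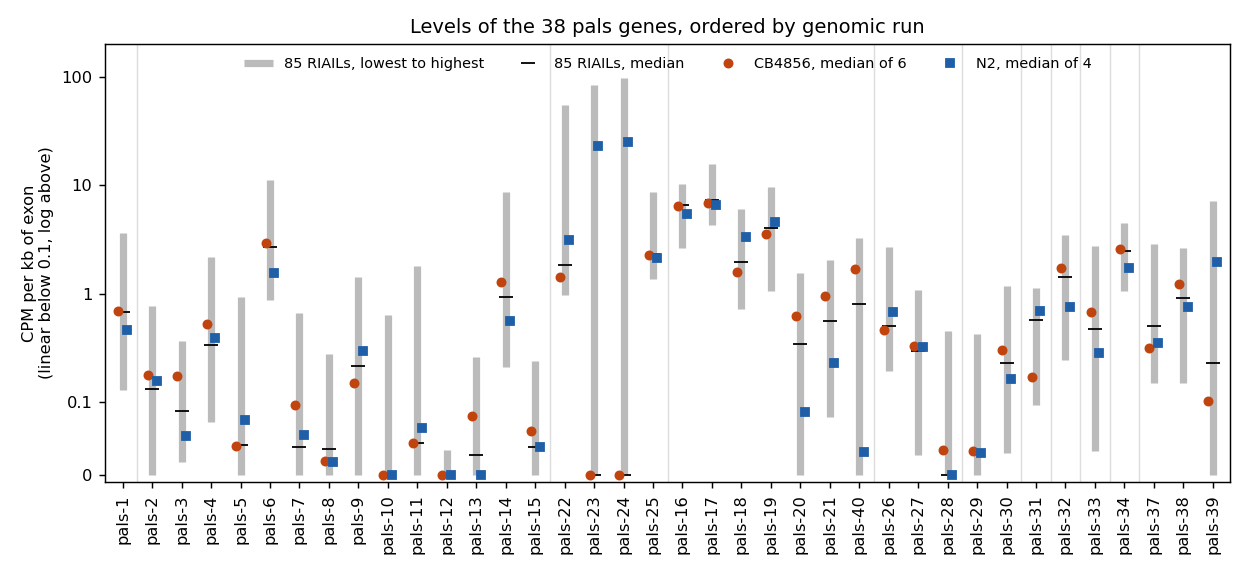
Levels of the 38 members in CPM per kb of exon (vertical axis, linear below 0.1 and log above), ordered along the horizontal axis by genomic run, with thin lines between runs. Grey bars span the 85 RIAILs with a dash at their median, circles are CB4856 medians and squares N2 medians. *pals-23* and *pals-24* reach the highest levels of the family and sit at 0 in CB4856.

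*pals-23* and *pals-24* were the most abundant members per kb in N2, and they were all but absent from CB4856. *pals-23* (III, 124778 to 127971) had 0, 1, 0, 0, 0 and 0 counts in CB4856, against 890, 548, 745 and 890 in N2. *pals-24* (III, 120435 to 124690) had 1 count in a single CB4856 library and 0 in the other 5, against 697, 497, 533 and 658 in N2. Per total count, CB4856 reads of *pals-23* were 4603-fold fewer than N2 reads (exact 95% interval 825 to 181850) and those of *pals-24* 3572-fold fewer (641 to 141150), where the intervals rest on 1 read in CB4856 and cover counting error only. In N2 the medians were 22.9 CPM per kb for *pals-23* and 24.9 for *pals-24*, which placed both above every other member there. The near absence of this pair in CB4856 was known when the genes were chosen, so these values are a description and carry no test.

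The RIAILs fell into separate sets at these genes, with no line in between. *pals-23* had 0 to 3 counts in 56 RIAILs (0 in 47 of them) and 695 to 2679 in the other 29 (median 1165). *pals-24* had 0 to 2 counts in 56 RIAILs (0 in 46) and 504 to 2141 in 29 (median 900). All 85 RIAILs were on the same side for both genes. In the 29 lines with reads, the ratio of *pals-24* to *pals-23* counts was 0.645 to 0.943 (median 0.780), against 0.715 to 0.907 (median 0.761) in N2.

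Among the 29 RIAILs with reads, 28 had more CPM of *pals-23* than the highest N2 library, and 28 did for *pals-24*. *pals-23* reached 30.6 to 124 CPM in these RIAILs (median 50.98), against 23.6 to 37.4 CPM in N2, and *pals-24* reached 22.2 to 99.0 CPM (median 37.8) in the RIAILs, against 21.4 to 28.7 CPM in N2. The libraries bear letters, A to G, each of which is called a library series, and N2 was present in series B, D, F and G only. Within those series, 18 of 19 RIAILs with reads lay above the N2 library of their own series for each gene. The 4 lines with reads in series C were the highest, with 74.4 to 124 CPM of *pals-23* against 30.6 to 69.1 CPM in the 25 lines of the other series. The highest of all was QX546 for both genes, and the lowest was QX534. Libraries of QX1430, the parent of the RIAILs, were not analysed here.

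**Figure D2:**
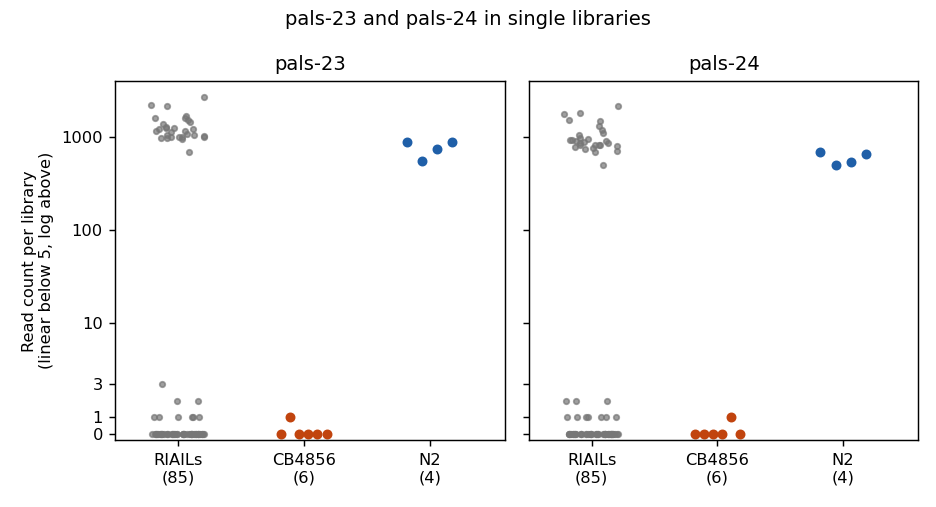
Read counts of *pals-23* (left) and *pals-24* (right) on the vertical axis (linear below 5, log above), with 1 point per library in RIAILs, CB4856 and N2. RIAILs sit either at 0 to 3 counts, with CB4856, or at 504 counts and more, with N2.

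The genes whose levels were most like those of *pals-23* and *pals-24* over the 85 RIAILs all lay near them on chromosome III. By Spearman's rho, *pals-23* was closest to *pals-24* (0.90), *fbxa-6* (0.89, an F-box gene 124 kb away), a pseudogene at III 57702 to 58684 (0.84), *nhr-280* (0.84, a nuclear hormone receptor gene) and *C29F9.2* (0.83), and the same 4 other genes led for *pals-24*. They had low counts in CB4856 as well, with medians of 0 counts in CB4856 against 97 in N2 for *fbxa-6*, 0 against 6.5 for *nhr-280* and 31 against 305.5 for *C29F9.2*. *fbxa-6* had 94 to 247 counts in the 29 RIAILs with *pals-23* reads and 0 or 1 in the other 56, and *C29F9.2* had 181 to 899 counts in the 29 and 8 to 152 in the 56. Since the RIAILs form separate sets, rho over all of them mostly follows the sets. Within the 29 lines, Spearman's rho with *pals-23* was 0.94 for *pals-24*, 0.57 for *C29F9.2*, 0.49 for *fbxa-6*, 0.35 for *nhr-280*, 0.24 for *pals-22* and 0.24 for *pals-25*.

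Likeness to *pals-23* was lower further along the chromosome, though not step by step. The median absolute rho was 0.50 over the 35 genes within 100 kb, 0.15 over the 48 genes at 100 to 500 kb, 0.16 over the 97 genes at 500 to 1000 kb, 0.12 over the 144 genes at 1 to 2 Mb and 0.07 over the 546 genes at 2 to 5 Mb, as low as over the 14519 genes of other chromosomes (0.07). *pals-18*, in the other run on the left of chromosome III, had a median of 0.46 within 100 kb and of 0.09 at 2 to 5 Mb. For *pals-39* on chromosome V the median within 100 kb was only 0.14 over 52 genes, against 0.08 on other chromosomes. These values are over genes that share the same libraries and are given as a description.

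**Figure D3:**
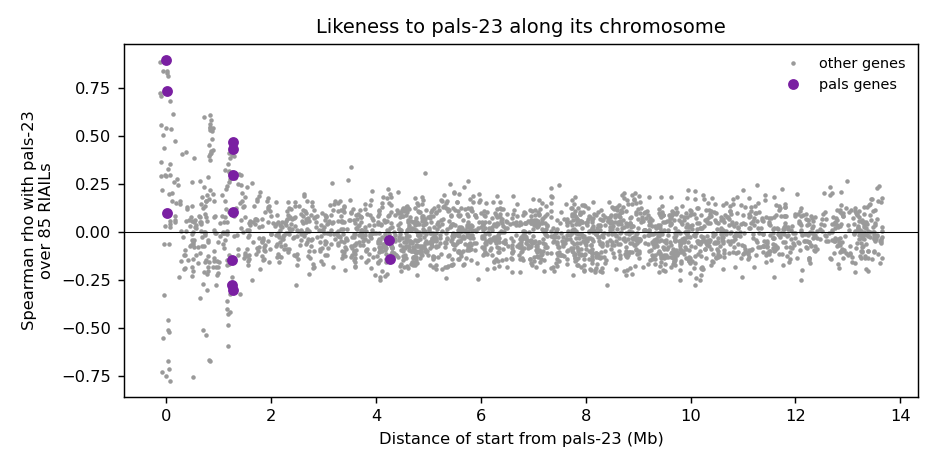
Spearman's rho with *pals-23* over 85 RIAILs (vertical axis) for every gene of chromosome III tested for variation, against the distance of its start from that of *pals-23* in Mb (horizontal axis). Large dots are *pals* genes. Values of large size in either direction sit near *pals-23*, and beyond 2 Mb no gene passed an absolute rho of 0.4.

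CB4856 was then compared with N2 over the rest of the family. Of the 36 members other than *pals-23* and *pals-24*, 24 passed the filter on low counts, and 8 of these differed between the strains at an adjusted p under 0.05 (edgeR quasi-likelihood, Benjamini-Hochberg over all genes). Over all 15718 genes tested 16.1% were called. The 4 members higher in CB4856 were *pals-40*, *pals-21*, *pals-20* and *pals-32* (4 of 24, where 8.79% of all genes were called higher), and the 4 lower ones were *pals-31*, *pals-22*, *pals-18* and *pals-39* (4 of 24, where 7.28% were called lower). The median absolute log2 fold change of the 24 members was 0.95, beside 0.27 over all genes tested, and their median log2 fold change was 0.52, beside -0.0048 over all. The libraries of the strains did not overlap in CPM for 9 of 24 members (the same 8 and *pals-33*), and over all genes tested this held for 13.7%. Of the 8 called members, 5 lie on the left of chromosome III and 3 on chromosome V. In the run of 14 on chromosome I, 4 members were tested (*pals-3*, *pals-4*, *pals-6* and *pals-14*) and missed the threshold, with adjusted p of 0.129 to 0.58.

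*pals-40*, a member of unknown function at III 1376945 to 1378003, showed the reverse pattern of *pals-23*. It had 20 to 32 counts in CB4856 (median 25), against 1, 1, 0 and 0 in N2. Per total count it was 50.4-fold higher in CB4856 (exact 95% interval 13.7 to 420, counting error only), and the fitted log2 fold change was 5.43 ± 0.46 (SE, adjusted p = 1.92e-05, edgeR). *pals-21*, which lies next to it, had 9 to 19 counts in CB4856 (median 12) and 4, 2, 3 and 3 counts in N2, a log2 fold change of 2.13 ± 0.33 (adjusted p = 0.00134). *pals-20*, an activator of the pathogen response in the same run, had 7 to 27 counts in CB4856 (median 14) and 4, 1, 3 and 0 counts in N2 (log2 fold change 2.96 ± 0.59, adjusted p = 0.00616). Its enclosing gene *Y82E9BR.5* had a median of 108.5 counts in CB4856 and 85.5 in N2 and did not pass the test (log2 fold change 0.43, adjusted p = 0.248). *pals-21* did not pass the filter on low counts when CB4856 replicate 2, 4, 5 or 6 was left out. For all 3 genes every CB4856 library was above every N2 library, and all rest on few reads.

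*pals-32*, a single gene on chromosome V (2896610 to 2898527), had 38 to 99 counts in CB4856 (median 50.5) and 37, 8, 18 and 28 counts in N2. The difference was the least firm of the 8 (log2 fold change 1.51 ± 0.43, adjusted p = 0.0376, edgeR), and it was no longer called without CB4856 replicate 1, 2 or 4 or N2 replicate 2, 3 or 4 (adjusted p of 0.0569 to 0.115). *pals-33*, whose start lies 776770 bases from its own, had 16 to 72 counts in CB4856 and 12, 6, 6 and 16 counts in N2, and missed the threshold (log2 fold change 1.62, adjusted p = 0.0601, edgeR).

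*pals-22*, the repressor of the pathogen response at III 132418 to 134401, was lower in CB4856. Its mean level was 1.33 CPM in CB4856 (SD 0.22, n = 6), against 3.02 CPM in N2 (SD 0.48, n = 4), with 24 to 37 counts in CB4856 (median 29) and 91, 64, 66 and 66 in N2. The log2 fold change was -1.13 ± 0.19 (SE, adjusted p = 0.00197, edgeR). Its neighbour and antagonist *pals-25*, the next gene to its right, showed no such gap. *pals-25* averaged 2.33 ± 0.39 CPM in CB4856 and 2.29 ± 0.36 CPM in N2 (log2 fold change 0.07 ± 0.19, adjusted p = 0.846), with 36 to 60 counts in CB4856 (median 56) and 67, 55, 51 and 45 in N2, which overlapped. The difference between the fold changes of these neighbours was not tested.

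*pals-18* (III, 1403408 to 1406263) had 77 to 122 counts in CB4856 (median 85) and 170, 201, 164 and 245 in N2, a log2 fold change of -1.02 ± 0.17 (SE, adjusted p = 0.00217, edgeR). *pals-31* (V, 636581 to 637518) had 3 to 6 counts in CB4856 (median 3.5) and 20, 13, 14 and 15 in N2 (log2 fold change -1.88 ± 0.26, adjusted p = 0.000563, edgeR). *pals-39* (V, 12441663 to 12443854) had 1 to 20 counts in CB4856 (median 3.5) and 113, 39, 34 and 97 in N2 (log2 fold change -3.43 ± 0.63, adjusted p = 0.004, edgeR). The 20 counts were those of CB4856 replicate 4, and without it the log2 fold change was -4.33. In all 3 genes the strains did not overlap.

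The other known regulators were called in neither direction. *pals-17*, a repressor, had 117 to 174 counts in CB4856 (median 138) and 162, 121, 129 and 143 counts in N2. Its mean was 6.19 CPM in CB4856 (SD 0.92, 6 libraries), against 5.84 CPM for N2 (SD 0.64, 4 libraries), a log2 fold change of 0.13 ± 0.16 (SE, adjusted p = 0.634, edgeR). *pals-16*, an activator, had 103 to 333 counts in CB4856 (median 6.88 CPM) and 82, 118, 154 and 171 counts in N2. It averaged 8.25 ± 3.91 CPM in CB4856 and 5.54 ± 1.698 CPM in N2 (log2 fold change 0.64 ± 0.36, adjusted p = 0.267, edgeR). *pals-19*, between *pals-16* and *pals-18*, gave -0.32 ± 0.15 (adjusted p = 0.167, edgeR). *pals-6* and *pals-34* gave 1.04 (adjusted p = 0.196) and 0.59 (adjusted p = 0.234). *pals-5* was too low to be tested, as were 11 other members.

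**Figure D4:**
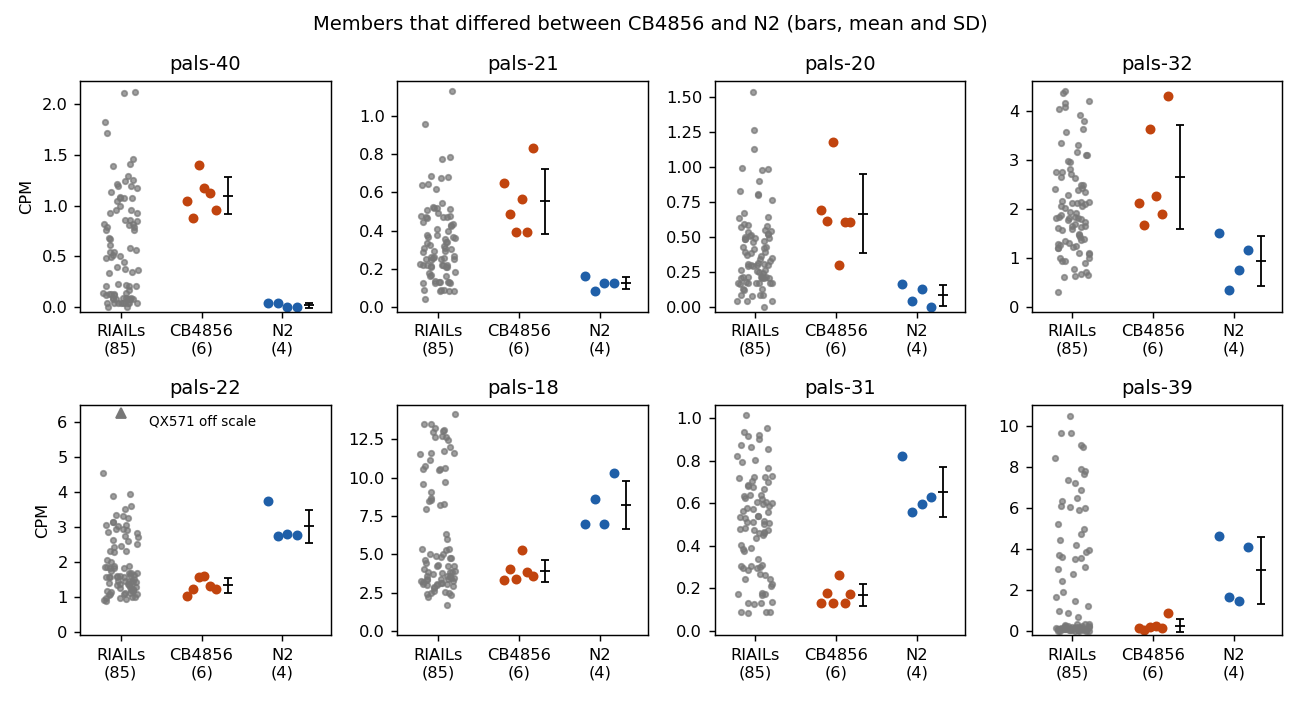
CPM per library (vertical axes, each from 0 on its own linear scale) of the 8 members called between CB4856 and N2, with RIAILs, CB4856 and N2 from left to right and the mean and SD of CB4856 and of N2 beside the points. The triangle in the *pals-22* panel marks QX571, which lies off the scale. The top row holds the members higher in CB4856 and the bottom row those lower in CB4856.

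The labels do not state that the libraries of a strain were grown as separate cultures. The p-values therefore reflect only the spread between these libraries, which may be technical. With the batch numbers of the titles as a block, 9 of 21 members were called over the 8 numbered libraries, against 5 of 21 in the same libraries without the block (10.6% and 10.1% of all genes), and *pals-6*, *pals-14*, *pals-32* and *pals-33* were the members gained. With the library letter as a block 1 member was still called, *pals-40*, beside 3.06% of all genes.

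The genes around the members were counted in the same way. Among the 72 other tested genes that lay in the runs or within 20 kb of them, 15 were called between CB4856 and N2 (20.8%, beside 16.1% over all genes). In the run of *pals-22* to *pals-25* it was 5 of 6 neighbours, of which *C29F9.2* (log2 fold change -2.90) and *sqst-5* (-2.11) were lower in CB4856 and 3 pseudogenes were higher, among them the pseudogene at III 109322 to 110185, with medians of 445.5 counts in CB4856 and 3 in N2. In the run from *pals-40* to *pals-18* it was 2 of 7.

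Over the RIAILs, the lowest, median and highest counts were 20, 38 and 1142 for *pals-22*, 38, 109 and 328 for *pals-18*, 2, 12 and 23 for *pals-31*, and 0, 8 and 35 for *pals-20*. The RIAILs were placed against the ranges of the parental strains for members whose strains did not overlap, by CPM. At *pals-18*, 50 RIAILs lay at or below the highest CB4856 library, 31 at or above the lowest N2 library and 4 between. At *pals-22*, 41 lay in the range of CB4856 or below, 19 in that of N2 or above and 25 between. At *pals-39*, 46 lay on the CB4856 side, 36 on the N2 side and 3 between, and at *pals-31* it was 16, 36 and 33. At *pals-40*, 25 lay at or above the lowest CB4856 library, 7 at or below the highest N2 library and 53 between, and at *pals-20* and *pals-21* the numbers on the CB4856 side were 47 and 29. At *pals-32*, 51 lay on the CB4856 side, 28 on the N2 side and 6 between, and at *pals-33*, 39, 44 and 2. The number of lines between depends on the width of the gap between the parental ranges, so it cannot be compared across these genes. The gap was 1.52 to 1.67 CPM at *pals-32* and 0.673 to 0.705 CPM at *pals-33*. At *pals-40*, where counts are low, it was 0.0430 to 0.881 CPM.

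Where a RIAIL had a parental side at a pair of members, the sides were compared. Sides at *pals-23* and *pals-24* followed the separate sets above instead of the parental CPM ranges. Lines with at most 3 counts were put on the CB4856 side and all others on the N2 side. By the CPM ranges, 4 lines lay between at each of these genes. Of 60 RIAILs that had a side at both *pals-22* and *pals-23*, 59 had the same one, and the exception was QX571. In the run from *pals-40* to *pals-18*, 30 of 31 RIAILs with a side at both *pals-18* and *pals-40* had the same one, with QX560 as the exception. The same held for 26 of 27 lines at *pals-20* with *pals-40*, 23 of 24 at *pals-21* with *pals-40*, 39 of 42 at *pals-18* with *pals-21*, 25 of 28 at *pals-20* with *pals-21* and 49 of 57 at *pals-18* with *pals-20*. Most of these agreements were on the CB4856 side. At *pals-20* with *pals-40*, 24 lines were on the CB4856 side of both and 2 on the N2 side of both. At *pals-20* with *pals-21* it was 23 and 2, and at *pals-21* with *pals-40* 18 and 5. With sides this uneven, the shares cannot be compared directly with those of other pairs. *pals-18* and *pals-23*, in different runs on the left of chromosome III with starts 1278630 bases apart, were on the same side in 64 of 81 lines (79.01%). Over 28 pairs of members on different chromosomes, the share on the same side was 37.97% to 70.7% (median 45.9%).

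Ranked by positive rho, the genes most like *pals-40*, *pals-21* and *pals-31* lay on the same chromosome as these members. In absolute size, the largest rho of *pals-31* was 0.71, with a gene on another chromosome. Over 85 RIAILs, *pals-40* was closest to *fbxa-30* (Spearman's rho 0.75), a pseudogene at III 148087 to 150197 (0.75), *pals-21* (0.72), *Y82E9BL.19* (0.72) and *fbxa-28* (0.71), and *pals-21* shared 3 of these with it. *pals-31* was closest to a pseudogene at V 570571 to 571205 (0.68), *nhr-123* (0.65), *irg-8* (0.62, a gene induced by pathogens), *C14C6.2* (0.61) and *C14C6.5* (0.59). Among pairs of members tested, 13 of 53 pairs within a run reached a rho of 0.5 (24.5%), against 4 of 382 pairs in different runs (1.05%), and over all pairs of genes 5.08% did. Without *pals-23* and *pals-24*, whose pattern was known when they were chosen, it was 10 of 48 pairs within a run (20.8%) and 3 of 330 in different runs (0.909%). Pairs within a run lie close together, whereas most pairs of all genes do not, and close pairs outside the family were not counted. Of genes of any kind within 100 kb, 61.1% had an absolute rho of at least 0.4 with *pals-18* and 13.5% with *pals-39*. The shares within runs are therefore not read as particular to the family. The closest pairs were *pals-18* with *pals-19* (0.91, neighbours that share 53 bases), *pals-23* with *pals-24* (0.90) and *pals-6* with *pals-14* (0.83).

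Variation among the RIAILs was tested as equality of their 85 levels, with the spread between libraries taken from CB4856 and N2. Leaving *pals-23* and *pals-24* aside, 6 of 28 members tested were called variable (edgeR, adjusted p under 0.05), and 5.52% of 17058 genes were. These were *pals-22* (adjusted p = 0.00101), *pals-18* (0.00629), *pals-40* (0.00789), *pals-39* (0.0204), *pals-37* (0.0293) and *pals-19* (0.0316). The largest SD of log2 CPM among those whose log2 CPM averaged 0 or more were 0.94 for *pals-37*, 0.84 for *pals-18*, 0.76 for *pals-22* and 0.57 for *pals-19*. *pals-39* and *pals-40*, with averages below 0, had larger SDs of 2.41 and 1.31. The spread between libraries weighed on this count. With that of CB4856 alone 3 of 27 members were called (*pals-18*, *pals-22* and *pals-40*, beside 3.01% of all genes, edgeR). With that of N2 alone 0 of 28 were (beside 0.957% of all genes). Of those 28, 5 had an unadjusted p under 0.05 (edgeR), and the share of all genes at that threshold was not counted. limma-voom called the same 6 as edgeR.

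*pals-37* had the largest number of RIAILs above every parental library among the variable members. It had 8 to 156 counts in RIAILs (median 27), 9 to 24 in CB4856 (median 17) and 30, 14, 17 and 22 in N2, and the strains did not differ in the test (log2 fold change -0.15 ± 0.30, adjusted p = 0.792, edgeR). By CPM, 40 of 85 RIAILs exceeded every parental library and 1 was below all of them. Over all genes tested the median was 4 RIAILs above and 6 below, and 0.352% of genes had as many above as *pals-37* or more. The highest were QX510 with 156 counts, QX577 with 136 and QX493 with 128. The antisense gene *anr-30*, which overlaps *pals-37*, had at most 3 counts in any library. Next in the number of RIAILs above every parental library, leaving out *pals-23* and *pals-24*, were *pals-17* with 26 (and 18 below all), *pals-19* with 23 (and 21 below) and *pals-18* (21 below) and *pals-25*, both with 22.

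*pals-19* (III, 1401940 to 1403460) had 24 to 202 counts in RIAILs (median 91), 67 to 95 in CB4856 (median 79.5) and 100, 112, 95 and 117 in N2. *pals-39* had 0 to 248 counts in RIAILs (median 8). Its levels were 10.5 CPM in the highest line and 0 in 6 lines, a range wider than those of CB4856 and N2 together.

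Of all RIAILs, QX571 stood apart at *pals-22*. It had 1142 counts of *pals-22*, 11.4 times the next highest line (QX544, 100 counts) and 29.8-fold the median CPM of the other 84. *pals-25* was at its highest in the same library, with 217 counts against at most 92 in the other lines, as was *C29F9.6*, a gene to the left of the run (225 counts against at most 139), whereas *pals-23* and *pals-24* had 0 and 1 counts in QX571. *Y82E9BR.5*, around *pals-20*, had 497 counts in QX571 and at most 189 in the others. *pals-39* had 248 counts there and up to 228 elsewhere, and *pals-13* 10 counts against at most 5. *pals-5* had 4 counts in QX571. This library held the highest value of all RIAILs for 1556 of 17058 genes tested, and for 42 genes it exceeded the next line by at least as much as for *pals-22*. Without QX571, *pals-22* was no longer called variable (adjusted p = 0.0833, edgeR), and the other 5 members still were.

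The levels of *pals-22* and *pals-25* were then correlated over the RIAILs, 1 of 5 pairs of genes tested in this way. Pearson's r was 0.589 (permutation p = 4e-05, adjusted p = 0.000175 over the 5 pairs) and Spearman's rho 0.304 (permutation p = 0.00491, adjusted p = 0.0123). Without the 2 lines farthest from the median of *pals-22*, QX571 and QX544, r was 0.296 (permutation p = 0.00667, adjusted p = 0.0167), so the larger value rests on QX571. With PC1 regressed out, r was 0.545 (permutation adjusted p = 0.000375) and rho 0.204, which missed the threshold (permutation adjusted p = 0.111). Within library series r was -0.264 to 0.885. In the 29 lines with *pals-23* reads *pals-22* had 46 to 100 counts and r was 0.499, and in the other lines without QX571 (n = 55) it had 20 to 54 counts and r was 0.297. *pals-25* had medians of 58 counts in these 29 lines and 57 in those 55.

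**Figure D5:**
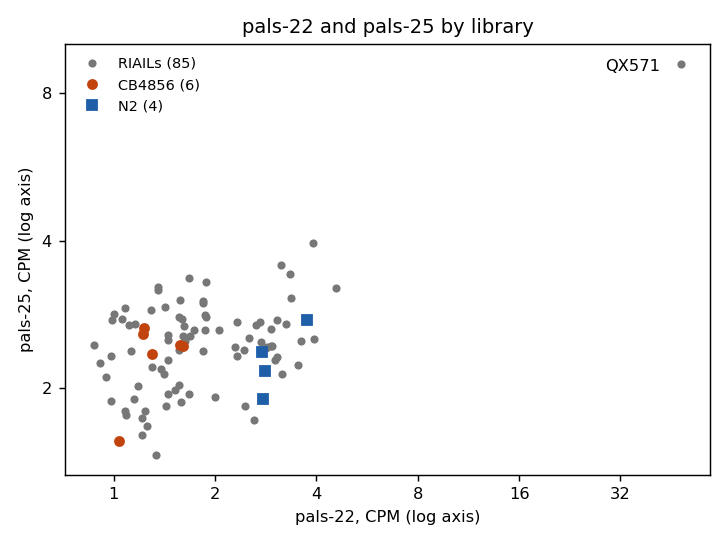
CPM of *pals-25* (vertical, log axis) against CPM of *pals-22* (horizontal, log axis), with 1 point per library of RIAILs, CB4856 and N2. CB4856 lies to the left of N2 at about the same height, and QX571 lies alone at the upper right.

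*pals-5* was then set against both. Its r was 0.206 with *pals-22* (permutation p = 0.0601, adjusted p = 0.10; after centring within series 0.246, adjusted p = 0.0405) and 0.0736 with *pals-25* (permutation p = 0.496, adjusted p = 0.531). It was correlated with *eol-1*, another gene of the pathogen response, with r = 0.442 (permutation p = 7e-05, adjusted p = 0.000175), rho = 0.389 (permutation p = 0.00029, adjusted p = 0.00145) and r of 0.182 to 0.716 within series. Without the 2 lines farthest from the median of *pals-5*, QX501 and QX498, r was 0.371 (permutation p = 0.00049, adjusted p = 0.00245). *pals-16* and *pals-20*, both on the activating side, gave r = 0.0689 (permutation p = 0.531, adjusted p = 0.531). The median of *pals-5* was 1 count.

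The same lines were the highest for other members as well. By CPM, QX498 was the highest RIAIL for 6 members, *pals-3*, *pals-4*, *pals-10*, *pals-11*, *pals-15* and *pals-28*, and QX501 for 5, *pals-2*, *pals-5*, *pals-9*, *pals-14* and *pals-33*. Some of these rest on few reads, with 4 counts of *pals-10*, 6 of *pals-15* and 13 of *pals-28* in QX498. Its 20 counts of *pals-3* were also reached by QX585. For how many of all genes QX498 and QX501 were the highest was not counted, so this is not read as particular to the family. The summed level of the run of 14 on chromosome I was 2.53 to 29.1 CPM in RIAILs (median 6.76, highest in QX501), 4.45 to 13.5 CPM in CB4856 (median 7.88) and 1.6996 to 7.57 CPM in N2 (median 4.60). QX501 also had 996 counts of *plg-1* and 963 of *clec-207*, genes of males, where the medians of RIAILs were 18 and 4. Their part in the level of the *pals* genes of this line was not tested.

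Levels of 11 of 27 members differed among the library series of the RIAILs (edgeR, adjusted p under 0.05, *pals-23* and *pals-24* left aside), where 61.4% of all 16686 genes tested did. They were led by *pals-22* (adjusted p = 3.45e-05), *pals-6* (0.000661) and *pals-14* (0.00162). The call of *pals-22* rested on QX571, since without it the adjusted p was 0.865, and limma-voom gave 0.609. Without series C, 7 of 27 members were called (beside 45.2% of all genes), and *pals-6* was not (adjusted p = 0.0884). PC1 was the leading component of the 5000 most variable genes, signed by the cuticle collagen gene *col-19*. *pals-25* had the largest correlation of the family with PC1 over RIAILs (Spearman's rho -0.60). How many of all genes reached such a value was not counted, so it is not read as a trait of this member.

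The other genes of the pathogen response were divided too. Of 25 listed genes outside the family 18 were tested between CB4856 and N2, 6 were higher in CB4856 and 6 lower (8.79% and 7.28% over all genes), with a median log2 fold change of 0.60. The strongest calls were *skr-4*, a ubiquitin ligase component (0 to 8 counts in CB4856, median 5, against 256 to 307 in N2, median 273.5, log2 fold change -5.86, adjusted p = 1.39e-05), *M01G12.9* (8 to 35 counts in CB4856, median 24, against 234 to 379 in N2, median 346.5, log2 fold change -3.81, adjusted p = 3.7e-05) and *fbxa-182*, an F-box gene (573 to 1050 counts in CB4856, median 773.5, against 50 to 147 in N2, median 89.5, log2 fold change 3.14, adjusted p = 9.5e-05; all edgeR). *math-15* had 0 counts in all CB4856 libraries and 29 to 58 in N2, at least 93.9-fold lower in CB4856 when 3 counts are allowed over the group. Of 19 listed genes tested among the RIAILs, 6 were variable (5.52% over all genes). *eol-1* was higher in CB4856 (36 to 101 counts in CB4856, against 6 to 14 in N2, log2 fold change 2.74, adjusted p = 0.00147, edgeR). Of 8 regulators outside the family, among them *pnp-1*, *drh-1*, *zip-1* and *lin-35*, edgeR, limma-voom and DESeq2 each called 0 between the strains. Over all genes they called 16.1%, 14.8% and 22.3%, so 0 of 8 is not read as a lack of difference. An unadjusted p under 0.05 was found for 4, 3 and 4 of the regulators (edgeR, limma-voom and DESeq2). The share of all genes at that threshold was not counted, so these numbers are not read as a difference of the regulators either.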

How the data were processed

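The authors sequenced RNA of whole worms on the BGISEQ-500, checked reads with FastQC, used STAR 2.73a for alignment to WBcel235 (per the submitters' processing notes), and deposited raw counts for each gene, 1 column per library. The sources used here name neither the counter nor its strand setting or annotation release. Positions are from the Ensembl 115 annotation of WBcel235.

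Counts were scaled by TMM and tested in R 4.3.3 with edgeR 4.0.16 (filterByExpr, quasi-likelihood, Benjamini-Hochberg adjusted p under 0.05 over all genes), DESeq2 1.42.0 and voom of limma 3.58.1 being alternatives. CB4856 was set against N2 on 10 libraries, and variation among 85 RIAILs used the residual spread of those libraries (8 degrees of freedom). For log2 CPM the prior count was 2. Correlations between genes had 100000 permutations, two-sided (Python 3.11.15, numpy 2.4.6, scipy 1.17.1). In simulated counts, 55% of 2-fold and 94% of 4-fold changes between the strains were recovered.

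Titles number 4 libraries of each strain as batches. The deviations of CB4856 and N2 libraries with the same number correlated at 0.684, 0.194, 0.0873 and -0.511, so the numbers were used as a block on the ground of the titles alone. No replicate pair agreed within sampling noise (chi-square over degrees of freedom 14.0 to 215). Named members are the known regulators, *pals-5*, *pals-23*, *pals-24* and those called between the strains. Also named are the variable ones whose log2 CPM averaged 0 or more (at most 5, by largest SD) and the 5 of highest level. The list of pathogen response genes held 9 members under older names, which were left out of it. Members and lists were chosen with earlier results of these data known.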

Additional observations from a re-analysis of the deposited data

Results flagged for a closer look

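Within the parental strains, 32 groups of libraries of the named members were checked for a library far from the rest, and 5 were found, of which chance alone gives about 1 in 20 groups. In N2, *pals-22* had 3.74 CPM in replicate 1, against 2.75 to 2.80 CPM in the other 3. In CB4856, *pals-25* had 1.56 CPM in replicate 5, below the 2.34 to 2.64 CPM of the other 5, and *pals-39* had 0.873 CPM in replicate 4, above the 0.0441 to 0.218 CPM of the others. CB4856 replicate 2 was the highest library for *pals-31* (0.261 CPM, against 0.130 to 0.176 CPM) and for *pals-18* (5.31 CPM, against 3.34 to 4.01 CPM). At *pals-31* these are 6 counts against 3 or 4, and the rate of 1 in 20 need not hold for counts this low. The cause was not tested for any of them.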

How the results depend on the processing

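The main comparison of CB4856 with N2 called 8 members. A filter of CPM of at least 1 in at least 4 libraries called 5 of 14 members tested, beside 15.6% of all genes. In the 8 numbered libraries, 5 were called without a replicate block and 9 with it, of which 6 were among the 8. When library letters formed the block, 1 was called. Leaving out each parental library gave 6 to 10 calls, and the share of all genes called moved as well. Without N2 replicate 1 it was 10 of 24 members, beside 28.96% of all genes. Without any other single library it was 6 to 8 of 21 to 24 members, beside 9.89% to 14.98% of all genes. The range of calls is therefore not read as particular to the members. All 8 kept their direction in the alternatives in which they passed the filter. *pals-25*, not called, had a log2 fold change of -0.017 with PC1 as a covariate and -0.022 to 0.20 when each library was left out, and *pals-17*, not called, -0.016 with the library letter as a block. Of the 6 variable members, 0 were called with the residual spread of N2 only and 3 with that of CB4856 only. Without series C, 7 members differed among series. The correlation of *pals-5* with *pals-22* passed the threshold only after centring within series (r = 0.246, permutation adjusted p = 0.0405). For *pals-33* the raw counts of the strains touched, so no RIAIL count by raw counts was made, and for the other members raw counts gave numbers of RIAILs on the CB4856 side within the counting interval of those by CPM. The N2 side and the class between moved more for some members. At *pals-20*, raw counts put 19 lines on the N2 side and 14 between, against 11 and 27 by CPM. At *pals-40* it was 11 and 47, against 7 and 53. At *pals-32*, 0 lines lay between, against 6. Leaving out QX571 or QX501, chosen after seeing the data, gave 5 and 6 variable members, beside 4.72% and 4.89% of all genes. With PC1 regressed out, the rank correlation of *pals-22* with *pals-25* missed the threshold (rho 0.204, permutation adjusted p = 0.111). Low counts kept 12 of 38 members out of the comparison of the strains.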
